A study of Rattus norvegicus with 24 samples.

Results

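The 50 genes described here serve the first stages of the secretory route, from entry into the endoplasmic reticulum (ER) to traffic with the Golgi, and were followed through dehydration in the supraoptic nucleus of the rat, a hypothalamic cell group of large (magnocellular) neurons that secrete vasopressin and oxytocin through the posterior pituitary. They were grouped by function as signal recognition and translocon (22 genes), N-glycosylation (5), COPII (9) and COPI (14). Of these 50 genes, 48 had a probe set with a single gene symbol on the rat Affymetrix array and together held 68 probe sets, of 31099 on the array. The COPII coat genes Sec23a and Sec24a had none. Srpr and Srp54 were found under the newer symbols Srpra and Srp54a. A gene is given by its kept probe set with the highest mean signal, and 34 genes had only 1 probe set.

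Every array carried RNA pooled from 5 Sprague Dawley rats. In the female set, 4 arrays of dehydrated females (72 hours without water, with food left in place) were set against 4 arrays of euhydrated control females. In the male set, 5 arrays of dehydrated males (3 days) were set against 5 arrays of control males, and all males were 10 to 12 weeks old. A further dehydrated female array, replicate 5, was left out: Avp, the vasopressin gene, read 50.6 and Oxt, the oxytocin gene, 26.0 on it, while the other 4 dehydrated female arrays read 3834 to 7666 for Avp and 3330 to 6698 for Oxt. The submitters' design text allows pooled samples to count as biological and as technical replicates. Whether each array held an independent pool is not stated, so p-values rest on the spread between arrays. RNA extraction, labelling and software differed between the female and male sets and cannot be told apart from sex.

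Proteins bound for secretion are recognised by the signal recognition particle as they emerge from the ribosome and are brought to its receptor on the ER. They pass through the Sec61 channel, lose their signal peptide to the signal peptidase, and receive N-glycans from the oligosaccharyltransferase. COPII-coated vesicles carry cargo from the ER towards the Golgi, and COPI-coated vesicles return escaped ER proteins and cargo receptors. In magnocellular neurons the vasopressin and oxytocin precursors take this route before they are packed into dense core granules.

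Signals are the deposited values, scaled by the authors so that the trimmed mean of an array is about 100. Array medians lay between 36.1 and 64.4. The mean log2 level of 8 magnocellular genes was 12.26 to 12.67 on dehydrated female arrays and 11.76 to 11.89 on control female arrays, and 12.52 to 12.61 on dehydrated male arrays and 11.86 to 12.14 on control male arrays. Those genes were Avp, Oxt, Scn7a, Calb2, Caprin2, Rasd1, Gal and Pdyn. In each set 4 of the 8 were called higher and none lower. Over all genes 2.22% were called higher in females and 11.1% in males. The list was chosen with earlier results of these data known, so its level and counts do not measure neuron content. Avp and Oxt overlapped between dehydrated and control arrays in both sets. In males Avp read 4397 to 5928 in dehydrated and 4337 to 5616 in control arrays. Oxt read 3872 to 5337 in dehydrated and 3950 to 5572 in control males. In a bulk nucleus, a change in cell number and a change in RNA per cell cannot be told apart. The log2 ratio of the 3′ to the 5′ beta-actin control probe sets was 2.77 to 3.17 on dehydrated male arrays and 2.39 to 2.83 on control male arrays, a mean difference of 0.32 (2-sided exact permutation test, p = 0.0238, adjusted p = 0.0714 over 3 control genes); its part in the male results was not tested. The other 2 control genes in males had adjusted p of 0.202 and 0.817. In females the 3 adjusted p-values were 1, and with 4 against 4 arrays a single control gene could not pass after adjustment.

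In dehydrated males 17 of the 48 genes rose, most of them genes of translocation, glycosylation and the p24 cargo proteins, while in dehydrated females Tmed10, a p24 gene, was the 1 that rose. In females none of the 48 fell. The female count was 2.08% of the 48, where 2.22% of all 11524 genes tested were called higher and 1.55% lower at an adjusted p under 0.05, so it lies at the background. At an unadjusted p under 0.05, dehydrated females had 13 of the genes higher (27.1%) and 2 lower (4.17%), beside 9.04% higher and 12.3% lower over all genes. In males 1 gene, Kdelr3, fell and 30 did not pass the test. The 17 that rose were 35.4% of the 48, where 11.1% of all 11533 genes tested were called higher and 10% lower. The background was not matched for signal or precision. In males the median standard error was 0.065 for the 48 and 0.103 over all genes, and in females 0.131 and 0.153. The genes were chosen with earlier results of these data known. These shares and those below therefore describe the list and are no test of it.

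The changes were small in both sets. The median log2 fold change (dehydrated over control) of the 48 genes was 0.14 in females and 0.12 in males, beside -0.03 in females and -0.02 in males over all genes tested. In females 39 of the 48 were positive and in males 36. The 17 genes that rose in males did so by 1.12-fold to 1.46-fold. In females all 4 dehydrated arrays lay above all 4 controls for 6 genes, 12.5% of the 48 against a background of 6.14%. For 1 gene, Copa, the dehydrated female arrays lay wholly below the controls, where the background was 8.16%. In males 13 genes lay wholly above the controls, 27.1% of the 48 against 9.11%, and none lay wholly below, against 5.95%.

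The calls over all genes depended on how arrays were scaled. With arrays centred on their median in place of a common trimmed mean, 219 genes were higher and 81 lower in females, against 256 and 179, and 1898 were higher and 612 lower in males, against 1279 and 1153. The 17 genes were positive in males under median centring, when all 17 were called among 22 genes higher, and under quantile normalization, when 10 were.

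**Figure D1:**
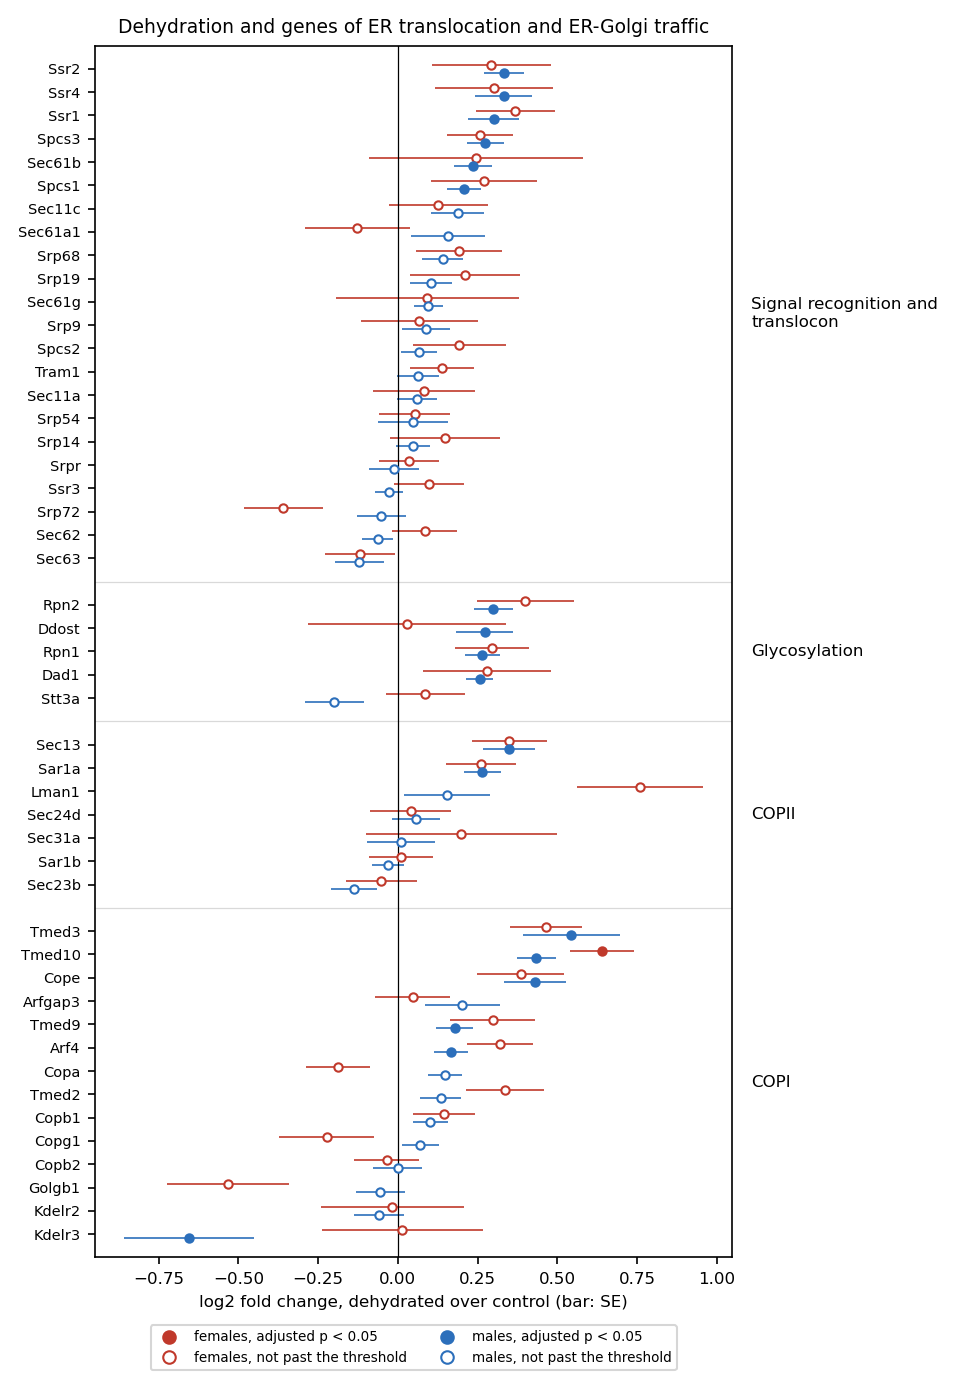
Log2 fold change of dehydrated over control for each of the 48 genes with a probe set, in females (red) and males (blue), grouped by step; bars are standard errors and filled points passed an adjusted p under 0.05. Tmed10 is the only filled female point, at 0.64, and the filled male points lie between 0.17 and 0.54, apart from Kdelr3 at -0.65.

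Among the steps, glycosylation had none of its 5 genes called in females and 4 called higher in males, with median log2 fold changes of 0.28 in females and 0.26 in males. COPI had 1 of 14 called higher in females, and 5 higher and 1 lower in males (medians 0.10 in females and 0.14 in males). Signal recognition and translocon had none of 22 called in females and 6 higher in males (medians 0.13 in females and 0.09 in males). COPII had none of 7 called in females and 2 higher in males (medians 0.20 in females and 0.06 in males). In males the shares called higher were 80% for glycosylation, 35.7% for COPI, 27.3% for signal recognition and translocon and 28.6% for COPII. Over all genes the male share was 11.1%. The COPI share was 7.14% higher in females and 7.14% lower in males, beside 2.22% and 10% of all genes. Medians over all genes were -0.03 in females and -0.02 in males. The steps were not tested against each other.

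Taken by the probe sets of highest signal, the signal recognition particle and its receptor showed no call in either set. None of the 7 targeting genes passed the test, with median log2 fold changes of 0.07 in females and 0.05 in males. Srp68, the partner of Srp72 on the particle's RNA, had log2 fold changes of 0.19 ± 0.13 (adjusted p = 0.475) in females and 0.14 ± 0.06 (adjusted p = 0.147) in males. Srp9 and Srp14, which together form the part of the particle that slows translation, stood at 0.07 ± 0.18 and 0.15 ± 0.17 in females and 0.09 ± 0.08 and 0.05 ± 0.05 in males. Srp19, which helps assemble the particle, was 0.21 ± 0.17 in females and 0.10 ± 0.07 in males, and Srp54, which binds the signal peptide, 0.05 ± 0.11 in females and 0.05 ± 0.11 in males. Dimmer Srp54 probe sets disagreed with this and with each other. One was -0.37 ± 0.14 (adjusted p = 0.19) in females and -0.18 ± 0.08 (adjusted p = 0.125) in males. Another was 0.41 ± 0.28 (adjusted p = 0.451) in females and -0.73 ± 0.39 (adjusted p = 0.215) in males. The Srpr gene, which encodes the receptor's alpha subunit, read 346, 298, 339, 337 and 312 in dehydrated males and 358, 369, 320.4, 329 and 275 in control males, with a log2 fold change of -0.01 ± 0.08, and was 0.04 ± 0.09 in females.

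Srp72 had 3 probe sets that disagreed. Its probe set of highest signal was -0.36 ± 0.12 in females and -0.05 ± 0.08 in males (adjusted p = 0.143 and 0.692). A dimmer one read 276, 289, 266, 305 and 277 in dehydrated males, against 318, 352, 323, 348 and 365 in control males. The 5 dehydrated male arrays lay below the 5 controls, a log2 fold change of -0.27 ± 0.06 (adjusted p = 0.00951). The same probe set was 0.23 ± 0.14 (adjusted p = 0.406) in females, and no direction is drawn for Srp72.

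In the translocon, 3 genes of the TRAP complex and Sec61b rose in males. TRAP, the translocon-associated protein complex, aids the entry of some signal peptides, and its 4 subunits are encoded by Ssr1 to Ssr4. Ssr1, Ssr2 and Ssr4 rose in males and Ssr3 did not pass the test, and none of the 4 passed it in females. Ssr2 read 622, 570.5, 457 and 571 in dehydrated females, against 535, 288, 529.6 and 496 in control females. The female groups overlapped, with control replicate 2 far below the other controls, and the log2 fold change was 0.29 ± 0.19 (adjusted p = 0.421). In males Ssr2 read 510.1, 541, 510.0, 509 and 491 in dehydrated males, against 360.0, 441, 426, 383 and 421 in control males, every dehydrated array above every control, at 0.33 ± 0.06 (adjusted p = 0.00254).

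Ssr4 was 0.30 ± 0.18 (adjusted p = 0.405) in females. The male signals of Ssr4 were 1056, 1131, 997, 1031 and 1103 in dehydrated males, against 649, 849, 903, 841 and 1014 in control males. The lowest dehydrated array lay below the highest control, and the change was 0.33 ± 0.09 (adjusted p = 0.02). That call was lost without dehydrated male replicate 2 (adjusted p = 0.0517). Ssr1 stood at 0.37 ± 0.12 (adjusted p = 0.133) in females, and its second probe set at 0.68 ± 0.17 (adjusted p = 0.0561). In males Ssr1 read 969, 1015, 981, 884 and 966 in dehydrated males, against 699, 713, 864, 711 and 940.1 in control males, a change of 0.30 ± 0.08 (adjusted p = 0.0176), and the second probe set rose at 0.29 ± 0.08 (adjusted p = 0.0225). The Ssr3 probe set of highest signal was 0.10 ± 0.11 (adjusted p = 0.673) in females and -0.03 ± 0.04 (adjusted p = 0.698) in males. A dimmer Ssr3 probe set lay wholly below the controls in dehydrated males at -0.40 ± 0.13 (adjusted p = 0.0524).

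Sec61b encodes the beta subunit of the channel and Sec61g the gamma subunit. In females Sec61b read 940.1, 1509.6, 687 and 2061 in dehydrated females, against 965, 1682, 999 and 624 in control females. Single arrays of both female groups differed by more than the groups did, and the change was 0.25 ± 0.34 (adjusted p = 0.74). In males Sec61b read 1134, 1143, 1137, 1180.1 and 1277 in dehydrated males, against 866, 1065, 1049.5, 1009 and 999.7 in control males, with no overlap and a log2 fold change of 0.24 ± 0.06 (adjusted p = 0.0146). Sec61g read 772, 1188, 630.5 and 1654 in dehydrated females, against 1014, 1187, 1056 and 581 in control females. For both genes, dehydrated female replicates 2 and 4 and control replicate 2 were high, and dehydrated replicate 3 and control replicate 4 were low. Sec61g stood at 0.09 ± 0.29 (adjusted p = 0.895) in females and 0.10 ± 0.05 (adjusted p = 0.166) in males.

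Sec61a1, which encodes the pore-forming alpha subunit, was not called: -0.13 ± 0.16 (adjusted p = 0.723) in females and 0.16 ± 0.11 (adjusted p = 0.379) in males. Tram1, a membrane protein next to the channel, was 0.14 ± 0.10 (adjusted p = 0.488) in females and 0.06 ± 0.06 (adjusted p = 0.545) in males. Sec62, which helps short secretory proteins into the channel, was -0.09 ± 0.28 (adjusted p = 0.899) in females and -0.06 ± 0.05 (adjusted p = 0.416) in males at the probe set of highest male signal. At the one of highest female signal it was 0.08 ± 0.10 (adjusted p = 0.701) in females and -0.06 ± 0.07 (adjusted p = 0.644) in males. Its partner Sec63, which recruits the chaperone BiP, was -0.12 ± 0.11 (adjusted p = 0.603) in females and -0.12 ± 0.08 (adjusted p = 0.307) in males at its probe set of highest signal. Another Sec63 probe set was -0.10 ± 0.16 (adjusted p = 0.765) in females and fell in males at -0.33 ± 0.10 (adjusted p = 0.0388).

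The signal peptidase has catalytic subunits encoded by Sec11a and Sec11c and accessory subunits encoded by Spcs1, Spcs2 and Spcs3. Spcs3 and Spcs1 rose in males and the other 3 genes did not pass the test. Spcs3 read 969.6, 931, 1072 and 853 in dehydrated females, against 762, 775, 822 and 827 in control females. In males it read 795, 835, 823, 809 and 811 in dehydrated males, against 617, 649, 704, 643 and 758 in control males. The groups did not overlap in either set, with 0.26 ± 0.10 (adjusted p = 0.203) in females and 0.27 ± 0.06 (adjusted p = 0.00492) in males. Spcs1 was 0.27 ± 0.17 (adjusted p = 0.409) in females. Male arrays gave 2131, 2038, 2136, 1952 and 2036 in dehydrated males, against 1964, 1860.3, 1673, 1627 and 1797 in control males, with 1 control above the lowest dehydrated array and a change of 0.21 ± 0.05 (adjusted p = 0.0158). Of the catalytic paralogues, Sec11c was 0.13 ± 0.16 (adjusted p = 0.708) in females and 0.19 ± 0.08 (adjusted p = 0.139) in males, and Sec11a 0.08 ± 0.16 (adjusted p = 0.826) in females and 0.06 ± 0.06 (adjusted p = 0.553) in males. Spcs2 was 0.19 ± 0.15 (adjusted p = 0.509) in females and 0.07 ± 0.06 (adjusted p = 0.451) in males.

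Glycosylation was represented by the oligosaccharyltransferase, which moves the glycan from its lipid carrier to the protein. Rpn1, Rpn2, Ddost and Dad1, its shared non-catalytic subunits, rose in males, and Stt3a, the catalytic subunit that works beside the translocon, did not pass the test. Dad1 read 966, 1149, 727 and 1395 in dehydrated females, against 933, 951, 956 and 609 in control females. Dehydrated replicate 3 and control replicate 4 were the low female arrays, as for Sec61b and Sec61g, and the female change was 0.28 ± 0.20 (adjusted p = 0.485). In males Dad1 read 1282, 1226, 1264, 1263 and 1201 in dehydrated males, against 1022, 1079.5, 1027, 1026 and 1056 in control males, the dehydrated arrays all above the controls, at 0.26 ± 0.04 (adjusted p = 0.000973).

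Rpn2 read 956, 1057, 1092 and 764 in dehydrated females, against 766, 555, 852 and 761 in control females. The male signals of Rpn2 were 914, 935, 878, 874 and 971 in dehydrated males, against 659.9, 811, 780.1, 715 and 749 in control males. The female groups overlapped, with 0.40 ± 0.15 (adjusted p = 0.182), while the male ones did not, with 0.30 ± 0.06 (adjusted p = 0.00352). Rpn1 likewise overlapped in females, at 0.30 ± 0.12 (adjusted p = 0.191), and lay wholly above the controls in dehydrated males, at 0.26 ± 0.05 (adjusted p = 0.00437). Ddost read 829, 989.5, 761 and 519 in dehydrated females, against 964, 337, 965 and 945 in control females. Control replicate 2 was far below the other female controls, and the female change was 0.03 ± 0.31 (adjusted p = 0.97). In males Ddost read 471, 497, 436, 465 and 483 in dehydrated males, against 333, 400.5, 444, 328 and 452 in control males. The male change of 0.27 ± 0.09 (adjusted p = 0.0465) lost its call without control replicate 1, 2 or 4 or dehydrated replicate 1, 2, 4 or 5, with adjusted p up to 0.113.

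The 2 probe sets of Stt3a were both below zero in males and differed in sign in females. The probe set with the highest female signal was 0.09 ± 0.12 (adjusted p = 0.757) in females and -0.22 ± 0.11 (adjusted p = 0.175) in males. The one with the highest male signal was -0.54 ± 0.18 (adjusted p = 0.131) in females and -0.20 ± 0.09 (adjusted p = 0.15) in males.

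COPII coats form when the GTPase Sar1 recruits the inner coat of Sec23 and Sec24 and then the outer coat of Sec13 and Sec31. Sec13 and Sar1a rose in males, and the 5 other measured genes of the step did not pass the test. Sec13 read 309, 294, 256 and 265 in dehydrated females, against 227, 182, 246 and 223 in control females. In males Sec13 read 214, 207, 267, 207 and 228 in dehydrated males, against 175, 194, 161, 173 and 171 in control males. The groups did not overlap in either set, and the changes were 0.35 ± 0.12 (adjusted p = 0.135) in females and 0.35 ± 0.08 (adjusted p = 0.0091) in males. The female minus male difference was 0.00 ± 0.14 (95% interval -0.28 to 0.29).

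Of the paralogues Sar1a and Sar1b, Sar1a rose in males. It was 0.26 ± 0.11 (adjusted p = 0.22) in females. In males Sar1a read 922, 931, 886, 1021 and 995 in dehydrated males, against 737, 844, 759, 766 and 848 in control males, without overlap, a change of 0.26 ± 0.06 (adjusted p = 0.00615). A second Sar1a probe set was 0.53 ± 0.15 (adjusted p = 0.0756) in females and 0.55 ± 0.08 (adjusted p = 0.000508) in males. Sar1b was 0.01 ± 0.10 (adjusted p = 0.969) in females and -0.03 ± 0.05 (adjusted p = 0.729) in males. The difference between paralogues was not itself tested. Of the inner coat, Sec23b was -0.05 ± 0.11 (adjusted p = 0.843) in females and -0.14 ± 0.07 (adjusted p = 0.202) in males, and Sec24d 0.04 ± 0.13 in females and 0.06 ± 0.07 in males. The outer coat gene Sec31a was 0.20 ± 0.30 in females and 0.01 ± 0.11 in males.

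Lman1, a lectin that carries glycoproteins out of the ER, had the largest female log2 fold change of the 48 genes. It read 101, 124, 84.6 and 73.5 in dehydrated females, against 49.2, 38.5, 56.6 and 72.2 in control females. The dehydrated arrays lay above the controls, and the change of 0.76 ± 0.20 (adjusted p = 0.0633) missed the threshold. In males Lman1 averaged 49.8 ± 7.1 in dehydrated males and 44.2 ± 7.38 in control males (SD, n = 5 each), with overlap and a change of 0.15 ± 0.13 (adjusted p = 0.475). The female minus male difference was 0.61 ± 0.24 (unadjusted p = 0.0197, adjusted p = 0.393).

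In the COPI step, 3 of the 5 genes called higher in males encode p24 cargo proteins. These transmembrane proteins, encoded here by Tmed2, Tmed3, Tmed9 and Tmed10, cycle between ER and Golgi and help load cargo into vesicles. Tmed10 was the 1 gene called in both sets. It read 739, 732, 675 and 821 in dehydrated females, against 491, 445, 460.4 and 494 in control females. In males it read 768, 730.0, 788, 756 and 785 in dehydrated males, against 548, 639, 586, 502 and 557 in control males. All dehydrated arrays lay above all controls in both sets, with log2 fold changes of 0.64 ± 0.10 (adjusted p = 0.00751) in females and 0.43 ± 0.06 (adjusted p = 0.000283) in males, or 1.56-fold and 1.35-fold. The female minus male difference was 0.21 ± 0.11 (95% interval -0.02 to 0.43, adjusted p = 0.547). With the left-out dehydrated female array returned, the female change was 0.53 (adjusted p = 0.429).

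Tmed3 read 705, 665, 637 and 847 in dehydrated females, against 512, 466, 538 and 536 in control females. The female groups did not overlap, and the change was 0.46 ± 0.11 (adjusted p = 0.0502). In males Tmed3 read 545, 638, 561, 628 and 639.5 in dehydrated males, against 249, 432, 460.1, 411 and 569 in control males. Control male replicate 1 was low and control replicate 5 lay within the dehydrated range, and the change was 0.54 ± 0.15 (adjusted p = 0.0239). The male call was lost without dehydrated replicate 2, 4 or 5, with adjusted p up to 0.0553. Tmed9 was 0.30 ± 0.13 (adjusted p = 0.257) in females and, without overlap, 0.18 ± 0.06 (adjusted p = 0.0424) in males, where the call was lost without any one array other than control replicates 2 and 3 (adjusted p up to 0.0882). Tmed2, the remaining p24 gene, was 0.34 ± 0.12 (adjusted p = 0.16) in females and 0.13 ± 0.06 (adjusted p = 0.165) in males. Taken by the probe sets of highest signal, the 4 p24 genes had a median log2 fold change of 0.40 in females and 0.31 in males. All 4 were positive in both sets by these probe sets. A dimmer Tmed2 probe set was 0.83 ± 0.55 (adjusted p = 0.448) in females and -0.05 ± 0.12 (adjusted p = 0.812) in males. A dimmer Tmed9 probe set was 0.69 ± 0.25 (adjusted p = 0.167) in females and 0.30 ± 0.11 (adjusted p = 0.0695) in males.

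**Figure D2:**
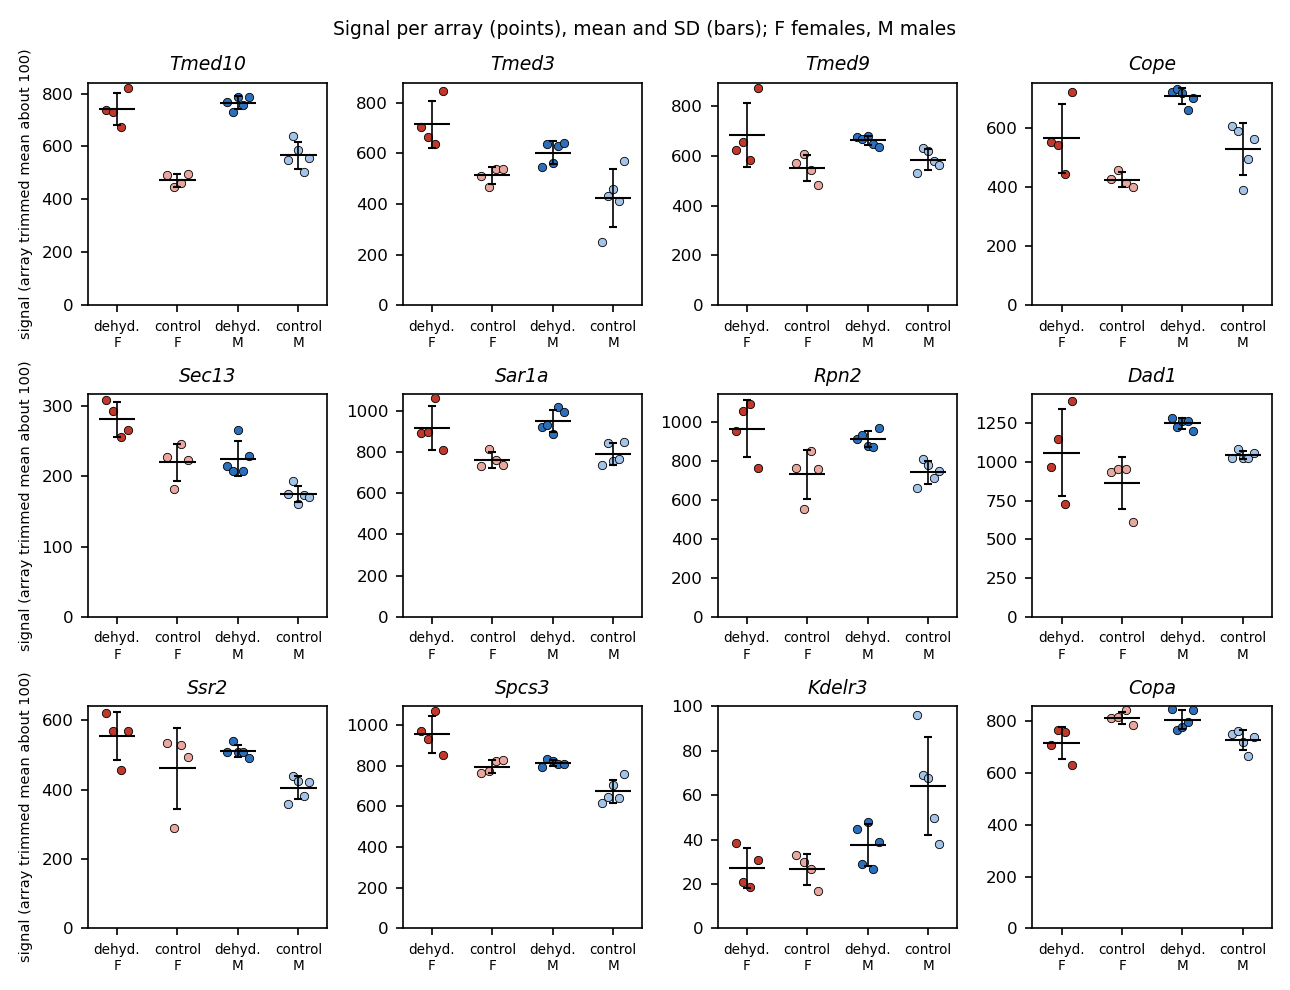
Deposited signal (array trimmed mean about 100) of 12 genes on each array, with dehydrated and then control arrays for females (F, n = 4 each) and for males (M, n = 5 each); horizontal lines are means and bars SD. Tmed10 separates dehydrated from control arrays in both sets, whereas Copa lies below its controls in females and above them in males.

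Of the 5 COPI coat genes, Cope, which encodes the epsilon subunit, rose in males and the others did not pass the test. Cope read 552, 541, 444 and 723 in dehydrated females, against 426, 459, 415 and 400.0 in control females. A single dehydrated female array lay among the controls, and the change was 0.39 ± 0.14 (adjusted p = 0.151). In males Cope read 722, 732, 718, 662 and 703 in dehydrated males, against 608, 590.5, 390.5, 495 and 563 in control males, with no overlap and a change of 0.43 ± 0.10 (adjusted p = 0.00731). The median over the coat genes was -0.03 in females and 0.10 in males.

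Copa, which encodes the alpha subunit of the coat, lay on opposite sides of its controls in the 2 sets. It read 709, 766, 758 and 629.8 in dehydrated females, against 811, 815, 842 and 787 in control females. In males it read 848, 766, 778, 796 and 844 in dehydrated males, against 749, 762, 721, 665 and 738 in control males. The groups did not overlap in either set, with -0.19 ± 0.10 (adjusted p = 0.339) in females and 0.15 ± 0.05 (adjusted p = 0.0692) in males, and neither passed the test. The female minus male difference was -0.34 ± 0.10 (95% interval -0.55 to -0.13, unadjusted p = 0.00324, adjusted p = 0.23). The remaining coat genes Copb1, Copb2 and Copg1 were 0.14 ± 0.10, -0.03 ± 0.10 and -0.22 ± 0.15 in females and 0.10 ± 0.05, -0.00 ± 0.08 and 0.07 ± 0.06 in males.

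Arf4, a GTPase of the family that recruits the coat, read 835, 872, 876 and 901 in dehydrated females, against 645, 801, 654 and 692 in control females. The female groups did not overlap, and the change was 0.32 ± 0.10 (adjusted p = 0.117). In males it was 0.17 ± 0.05 (adjusted p = 0.0435), and the call was lost without any one array other than control replicate 2 (adjusted p up to 0.105). Arfgap3, which stimulates GTP hydrolysis by Arf proteins, was 0.05 ± 0.12 (adjusted p = 0.87) in females and 0.20 ± 0.12 (adjusted p = 0.263) in males. Golgb1, the Golgi tether giantin, was -0.53 ± 0.19 (adjusted p = 0.156) in females and -0.05 ± 0.08 (adjusted p = 0.673) in males.

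The KDEL receptors return escaped ER chaperones, and of the 2 measured, Kdelr3 was the 1 gene called lower in males. In females Kdelr3 read 38.3, 21.1, 18.8 and 30.8 in dehydrated females, against 33.2, 29.7, 26.8 and 16.9 in control females, a change of 0.01 ± 0.25 (adjusted p = 0.981). In males it read 44.9, 29.0, 47.9, 26.8 and 38.9 in dehydrated males, against 96.2, 69.1, 67.8, 49.6 and 38.1 in control males. The male groups overlapped, and all these signals lie below the array trimmed mean of about 100. The male change was -0.65 ± 0.20 (adjusted p = 0.0384) and was lost without control replicate 1, 2 or 3 or dehydrated replicate 2, 4 or 5, with adjusted p up to 0.0928. Kdelr2 was -0.02 ± 0.23 (adjusted p = 0.977) in females and -0.06 ± 0.08 (adjusted p = 0.656) in males.

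Promoter letters were compared because ER stress factors bind known short motifs and many secretory genes carry them. RefSeq promoters of the GRCr8 build (250 bases before to 50 after the start used in the table) were found for 45 of the 50 genes. The XBP1 and ATF6 motif known as UPRE was searched as TGACGTGG on both strands. It was in 199 of 33469 promoters of the table (0.595%), and in 0.604% of those of protein-coding genes. Among the 45 it was in 8 (17.8%). Of these 8 genes, 6 belong to the COPI step. The 8 windows of 60 bases are shown because they carry what these promoters share; capitals mark the motif, read as CCACGTCA where it lies on the opposite strand.
Arf4 chr16:1903401-1903460 (plus strand): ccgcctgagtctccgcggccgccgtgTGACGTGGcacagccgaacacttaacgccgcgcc
Copa chr13:87078858-87078917 (plus strand): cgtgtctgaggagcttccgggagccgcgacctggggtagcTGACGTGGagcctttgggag
Copb1 chr1:177872813-177872872 (minus strand): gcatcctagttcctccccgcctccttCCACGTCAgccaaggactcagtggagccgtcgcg
Copb2 chr8:108040651-108040710 (plus strand): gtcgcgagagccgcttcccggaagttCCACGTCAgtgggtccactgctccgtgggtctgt
Golgb1 chr11:77405957-77406016 (minus strand): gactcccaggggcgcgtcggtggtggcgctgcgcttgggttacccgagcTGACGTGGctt
Kdelr3 chr7:112959505-112959564 (plus strand): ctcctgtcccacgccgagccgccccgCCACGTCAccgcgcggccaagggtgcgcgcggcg
Sec23a chr6:82440962-82441021 (minus strand): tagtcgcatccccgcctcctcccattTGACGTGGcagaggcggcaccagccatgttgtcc
Srp19 chr18:26205707-26205766 (plus strand): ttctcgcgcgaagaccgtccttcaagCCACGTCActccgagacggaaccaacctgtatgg

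Counting the start as base 0, the motif began at base -9 in Arf4, 30 in Copa, -6 in Copb1, -10 in Copb2, 39 in Golgb1, -101 in Kdelr3, -91 in Sec23a and -155 in Srp19. Of the 7 with it that were measured, 1 (Arf4) was called higher in males and 1 (Kdelr3) lower. Each of these 2 calls was lost when some single arrays were left out. The median log2 fold change of the 7 was 0.10. Of the 36 without it 15 were called higher, with a median of 0.15. The letters CCACG, which also lie inside the UPRE on its opposite strand, were in 27 of the 45 promoters (60%). They were in 31.6% of all promoters and in 35.5% of those of protein-coding genes. In males 10 of 26 measured genes with CCACG were called higher and 6 of 17 without it. The cAMP response element, searched as TGACGTCA, was in 1 of the 45 (2.22%), Cope, in 1.83% of all and in 2.10% of protein-coding promoters. The ERSE, the ER stress element bound by ATF6 with NF-Y, and the amino acid response element (TGATGNAA) were in none of the 45, and in 0.0657% and 3.98% of all promoters.

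The Tmed10 promoter is shown because Tmed10 was the gene called in both sets. It lies at chr6:110757694-110757993 on the minus strand of GRCr8, and capitals mark its 2 matches to CCACG, both on the opposite strand (CGTGG).
Tmed10: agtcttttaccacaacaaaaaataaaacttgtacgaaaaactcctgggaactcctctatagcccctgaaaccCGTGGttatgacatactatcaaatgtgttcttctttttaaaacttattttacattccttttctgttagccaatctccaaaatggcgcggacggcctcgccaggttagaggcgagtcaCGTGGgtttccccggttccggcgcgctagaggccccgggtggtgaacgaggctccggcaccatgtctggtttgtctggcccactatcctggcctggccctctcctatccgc

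The female and male sets share no arrays, so their estimates for the 48 genes can be set side by side. For 2 of them, Stt3a and Sec62, the probe set of highest signal differed between sets, and the probe set with the highest mean over both sets was used here. On that basis 33 of the 48 were positive in both sets, 8 negative in both, and 7 differed in sign. Across genes, which are not independent replicates, the log2 fold changes of the sets had a Pearson r of 0.627, as a description. With each set's own probe set for those 2 genes, 33 were positive in both, 6 negative in both and 9 of differing sign, with a Pearson r of 0.579. All 17 genes called higher in males were positive in females, where their median was 0.30 (range 0.03 to 0.64), beside 0.27 in males (0.17 to 0.54). Of these 17, 11 were higher at an unadjusted p under 0.05 in females, where 9.04% of all genes were, and 5 lay wholly above the female controls, where 6.14% of all genes did.

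The female arrays were noisier for these genes. The median standard error of the 17 genes was 0.134 in females and 0.060 in males. The median within-group SD of the log2 signal over the 48 genes was 0.202 in dehydrated females and 0.175 in control females, beside 0.0725 in dehydrated males and 0.118 in control males. The widest spreads were those of Sec61b in dehydrated females (0.701) and Ddost in control females (0.745).

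No gene of the 48 differed between sets in the fit of the female minus male effect, where 3 of 11519 genes (0.026%) were called at all. Taken by the probe set of highest signal, the female minus male difference was above zero at an unadjusted p under 0.05 for 1 of the 48 (2.08%), Lman1. It was below zero for 3 (6.25%), Copa, Golgb1 and Srp72. Over all genes the shares were 3.77% and 5.68%, so these counts lie near the background. A dimmer Srp72 probe set had the opposite sign in the same limma fit, 0.50 ± 0.15 (unadjusted p = 0.00271, adjusted p = 0.22). No direction is therefore drawn for the Srp72 difference. Dimmer probe sets of Sec63, Ssr3 and Ssr1 were above zero, at 1.28, 0.95 and 0.39 (unadjusted p = 0.0043, 0.0402 and 0.0484). These tests do not show that the sets responded alike: the 95% interval of the Ddost difference ran from -0.92 to 0.43 and that of Sec61b from -0.70 to 0.72.

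**Figure D3:**
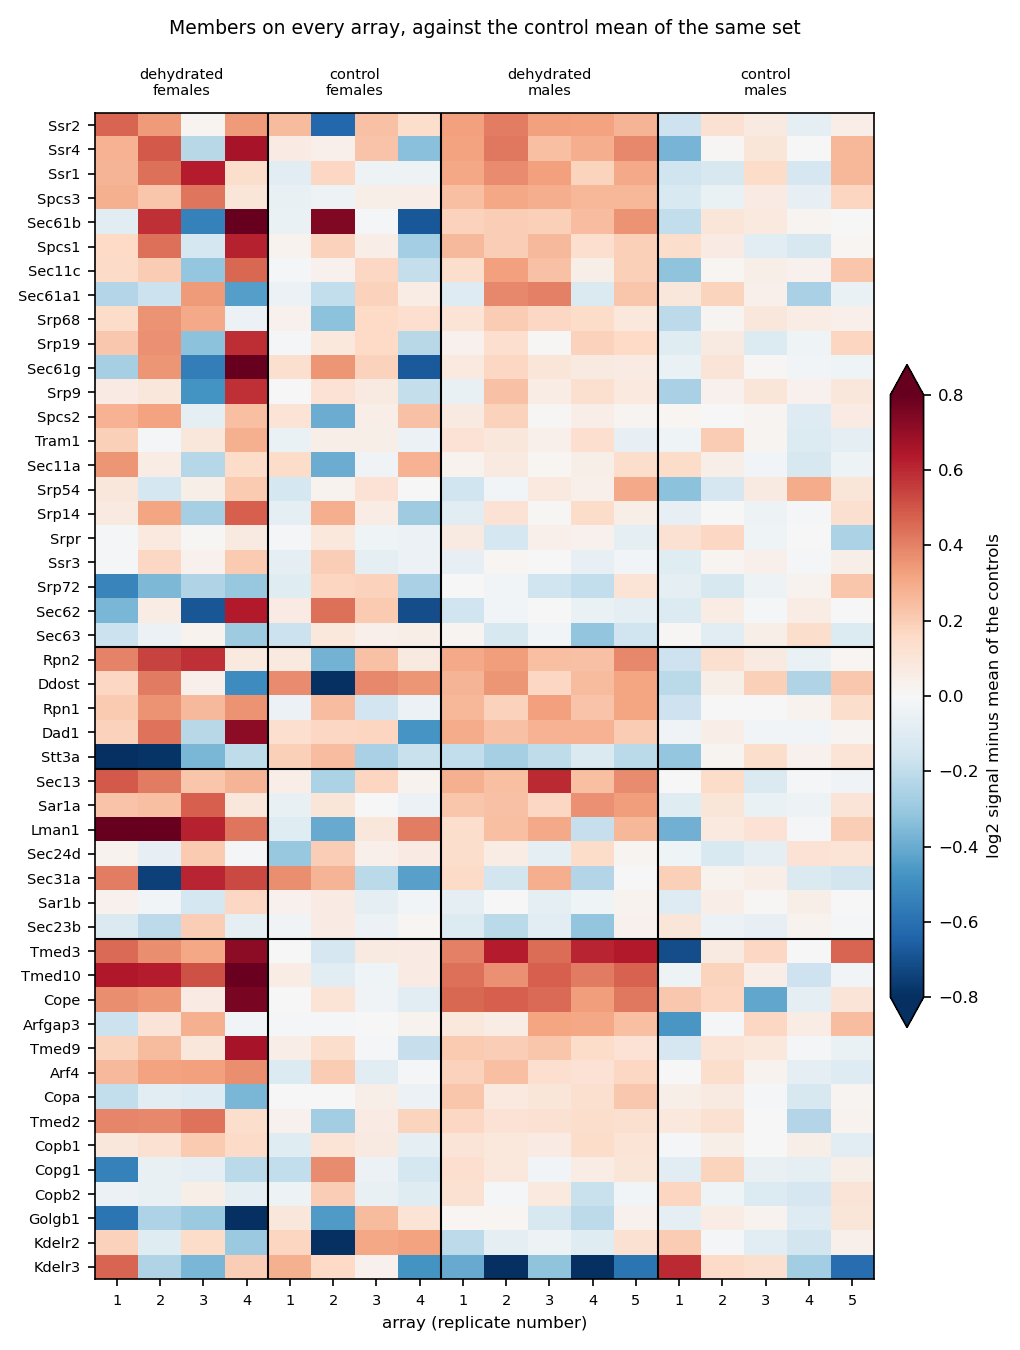
Log2 signal of each of the 48 genes on every array, minus the mean of the controls of the same set, with rows in step order and dehydrated arrays left of controls in each set; each gene is drawn from its probe set with the highest mean over both sets. Sec61b and Sec61g vary between female arrays of both groups, while the rows of Ssr2, Rpn2 and Tmed10 are above zero on all 5 dehydrated male arrays.

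Counted by array, 29 to 34 of the 48 genes lay above the control mean on dehydrated female arrays and 19 to 32 on control female arrays, with the same probe sets in both array sets. The counts were 34 to 39 on dehydrated male arrays and 16 to 36 on control male arrays. The median over the 48 genes stood 0.16, 0.21, 0.04 and 0.20 above the control mean on the 4 dehydrated female arrays, so replicate 3 lay among the controls, whose medians were -0.04 to 0.08. On each of the 5 dehydrated male arrays it stood 0.11 to 0.15 above.

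Genes of the same steps outside the 50 were listed by function and counted in the same way. Of 104 measured in females, 4 rose and none fell (limma), with a median log2 fold change of 0.06; by the unadjusted p, 15 were higher (14.4%) and 10 lower (9.62%) under 0.05, beside 9.04% and 12.3% of all genes. Called genes were 3.85% of those in females, beside 2.22% of all genes called higher. Of 105 measured in males, 21 rose (20%) and 2 fell (1.90%), with a median of 0.07, beside 11.1% and 10% of all genes. By the unadjusted limma p in males, 28 were higher (26.7%) and 8 lower (7.62%) under 0.05. Over all genes these male shares were 16.7% and 18.3%. Among those that passed the threshold, the 3 with the largest log2 fold change were the same genes in both sets. Ykt6, a SNARE of ER-Golgi transport, stood at 0.94 ± 0.16 (adjusted p = 0.0116) in females and 1.02 ± 0.12 (adjusted p = 7.12e-05) in males. Emc7, a subunit of the ER membrane protein complex, which inserts membrane proteins, stood at 0.79 ± 0.12 (adjusted p = 0.00768) in females and 0.65 ± 0.06 (adjusted p = 3.80e-06) in males. Ostc, a subunit of the same oligosaccharyltransferase form as Stt3a, stood at 0.55 ± 0.13 (adjusted p = 0.0465) in females and 0.53 ± 0.07 (adjusted p = 9.10e-05) in males. The falls in males were Magt1, a subunit of the form built on Stt3b, at -0.48 ± 0.09 (adjusted p = 0.00244), and Serp1, which associates with the translocon, at -0.16 ± 0.05 (adjusted p = 0.0489).

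Markers of mural cells and meninges were lower on average with dehydration in both sets. Of 15 such genes 5 were called lower in dehydrated females and 14 in dehydrated males, and none was higher. Over all genes 1.55% were called lower in females and 10% in males. The mean log2 level of the 15 was 9.09 to 9.41 on dehydrated female arrays and 9.61 to 9.99 on control female arrays. In males it was 9.11 to 10.25 on dehydrated arrays and 9.99 to 11.20 on control arrays. In 2-sided exact permutation tests of that mean, the adjusted p over the cell type lists was 0.0762 in females and 0.0635 in males. Oligodendrocyte markers were lower in females for 4 of 7 (10.55 to 11.26 in dehydrated and 11.38 to 11.95 in control females) and for none of 7 in males. Blood markers were lower for 1 of 2 in females and 2 of 2 in males, and microglial markers for none of 6 in females and 3 of 5 in males. Astrocyte markers were lower for 1 of 7 in females and 2 of 7 in males. Choroid plexus markers were lower for none of 2 in females and 1 of 2 in males, and endothelial markers for none of 6 in either set. No marker probe set of these lists averaged 0 over the arrays.

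With the meninges marker mean as a covariate in males, the 17 genes stayed positive and 3 stayed past the threshold. These were Tmed10 at 0.51 ± 0.09 (adjusted p = 0.00725), Sec13 at 0.48 ± 0.12 (adjusted p = 0.0379) and Dad1 at 0.26 ± 0.07 (adjusted p = 0.0429). Calls fell over all 11533 genes tested too, from 1279 higher and 1153 lower to 339 higher and 110 lower with this covariate. The median of the 17 was 0.22 with the covariate and 0.27 without it, the median standard error was 0.093 and 0.060, and 11 of the 17 estimates moved by less than 0.1. Tmed3 and Kdelr3 moved furthest. Tmed3 was 0.10 ± 0.19 (adjusted p = 0.84) with the covariate, against 0.54 ± 0.15 without it, and Kdelr3 0.13 ± 0.19 (adjusted p = 0.79), against -0.65 ± 0.20. With the oligodendrocyte mean as the covariate, 15 of the 17 stayed past the threshold in males, beside 1172 higher and 942 lower over all genes. In females Tmed10 was 0.88 ± 0.24 (adjusted p = 0.382) with the meninges mean and 0.51 ± 0.19 (adjusted p = 0.657) with the oligodendrocyte mean. Neither marker mean overlapped between dehydrated and control female arrays, so these fits cannot separate the covariate from dehydration. The median standard error of the 48 genes was 0.131 without a covariate, and 0.316 and 0.244 with them. Over all 11524 genes 3 and 11 were called higher, and no conclusion about Tmed10 is drawn from these fits. The part of the other cell types in these changes was not tested.

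**Figure D4:**
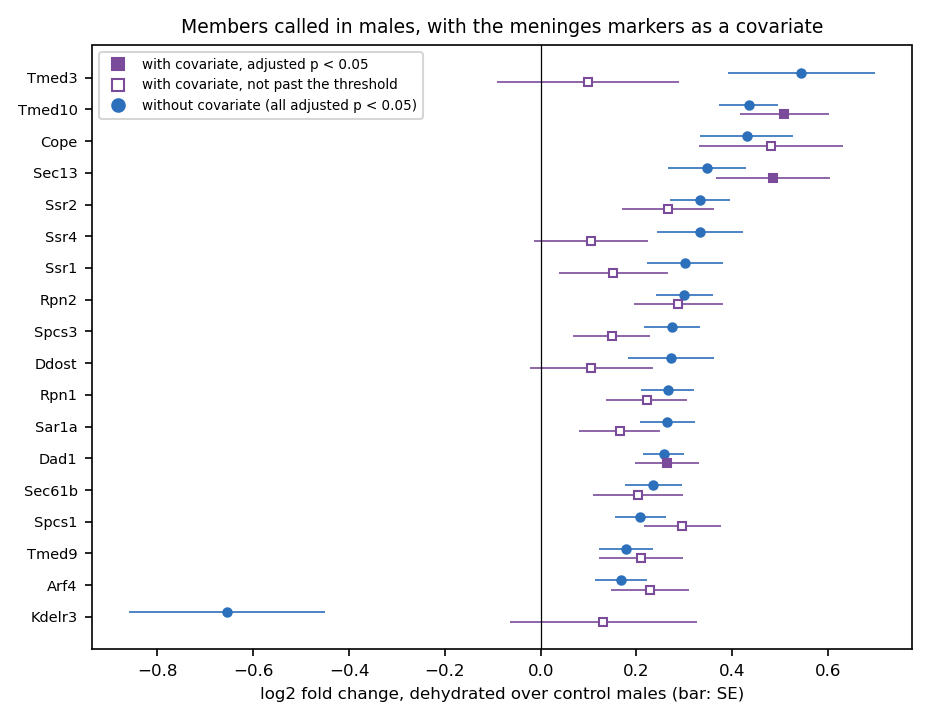
Log2 fold change of dehydrated over control males for the 18 genes called in males, without (circles) and with (squares) the mean of mural and meninges markers as a covariate; bars are standard errors and filled squares passed an adjusted p under 0.05. Tmed10, Sec13 and Dad1 stay past the threshold, while Tmed3 and Kdelr3 move furthest.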

How the data were processed

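RNA of the supraoptic nucleus was measured on Affymetrix arrays. The table holds an intensity for each probe set, deposited by the authors on a linear scale with a 2% trimmed mean near 100 on every array; per the submitters' processing notes the software was GCOS 1.2 for males and MAS5 for females. Per the labels' protocols, male RNA was prepared with QIAzol and RNeasy and an Ambion amplification kit, and female RNA with Trizol and the Affymetrix protocol. Background and probe summary settings are not given in the sources used here. Of 24 samples 19 had values; 5 lactating samples were not analysed here.

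Arrays were scaled again to a trimmed mean of 500, and log2(value + 32) was used. Without the 57 control probe sets, those with a mean above the 30th percentile were kept (21729), among them 65 of the 68 member probe sets and all 48 genes. limma 3.58.1 in R 4.3.3 (lmFit, eBayes with trend) was fitted within the female arrays, within the male arrays, and on both for the female minus male difference, with Benjamini-Hochberg adjustment over all kept probe sets and a threshold of 0.05. All adjusted p-values of members come from these limma fits. The scripts were tested on simulated data. Precision is limited by how few arrays there are: over all genes the median SE was 0.153 in females and 0.103 in males. Probe sets were named from the platform annotation, updated by Entrez ID (20832 with 1 symbol, 436 with several, 9831 with none). Array measures were compared with 2-sided exact permutation tests, for which the smallest p is 0.0286 with 4 against 4 arrays and 0.00794 with 5 against 5. Promoters came from RefSeq (GRCr8). Figures were drawn with Python 3.11.15 and matplotlib 3.10.9.

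Named genes are those past the threshold, the largest change or smallest p per step, genes whose probe sets differ, the paralogue pairs, and, among other genes of the steps, the 3 largest rises and falls past the threshold per fit. The genes, lists and marker lists were chosen with earlier results of these data known. Alternatives were other scalings, offsets of 1 and 100, other filters, array weights, no trend, all groups in 1 fit, all 5 dehydrated female arrays, marker covariates and leaving out each array.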

Additional observations from a re-analysis of the deposited data

Results flagged for a closer look

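Of 192 groups (48 genes in 4 groups), 9 held an array far from the others by Dixon's test at the 95% level, and chance flags about 1 in 20 groups. Of the 9, 5 concerned control female replicate 2, which was high for Copb2 (366, others 298 to 309), Ssr1 (954, others 801 to 824) and Ssr3 (1268, others 1045 to 1070) and low for Ddost (337, others 945 to 965) and Ssr2 (288, others 496 to 535). Control female replicate 4 was low for Dad1 (609, others 933 to 956). Among males, control replicate 1 was low for Srp68 (329, others 387 to 407) and Srp9 (424, others 522 to 545), and dehydrated replicate 2 was high for Sec61g (1450.1, others 1353 to 1381).

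Copa lay below all controls in dehydrated females and above all controls in dehydrated males, a female minus male difference of -0.34 on the log2 scale. The difference was tested in the limma fit on both sets and had an unadjusted p of 0.0032 and an adjusted p of 0.23.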

How the results depend on the processing

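The female count of 1 gene higher was 9 in 1 fit with all groups, 6 with array weights, 2 with median centring, with quantile normalization, with the 50th percentile filter and with an offset of 100, and 0 with all 5 dehydrated arrays, the meninges covariate or the oligodendrocyte covariate (1 to 2 when single arrays were left out). The female count of 0 lower was 3 in 1 fit with all groups and 2 with array weights (0 to 1 without single arrays). The male count of 17 higher was 8 in 1 fit with all groups, 3 with the meninges covariate, 9 with no trend, 10 with quantile normalization and 22 with median centring (12 to 16 without single arrays). The male count of 1 lower was 3 over all kept probe sets and 0 in 1 fit with all groups, with median centring, no filter, no trend or either covariate (0 to 1 without single arrays); quantile normalization called Sec62 in place of Kdelr3. No gene of the list was called in the female minus male difference under any setting. Calls over all genes also changed with the setting. In females they were 256 higher and 179 lower in the fit used above. They were 698 and 782 in 1 fit with all groups, and 518 and 590 with array weights. With all 5 dehydrated arrays they were 1 and 0. In males 1279 were higher in the fit used above, 798 in 1 fit with all groups and 986 with no trend. With quantile normalization 1249 were higher in males.

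The female median over all 48 genes (0.14) was 0.039 with all 5 arrays and 0.31 with the meninges covariate (0.09 to 0.19 without single arrays). The COPI median (0.10) was 0.039 with all 5 arrays, 0.15 with array weights, 0.14 with median centring and with the 50th percentile filter, and 0.13 and 0.12 with the meninges and oligodendrocyte covariates (0.10 to 0.14). The COPII median (0.20) was 0.27 over all probe sets, -0.075 with the meninges and 0.38 with the oligodendrocyte covariate (0.062 to 0.27). The glycosylation median (0.28) was 0.14 with all 5 arrays, 0.52 with the meninges covariate and 0.15 with quantile normalization (0.15 to 0.31). The signal recognition and translocon median (0.13) was -0.00437 with all 5 arrays, 0.36 with the meninges and 0.016 with the oligodendrocyte covariate (0.06 to 0.22). In males the median of all 48 (0.12) was 0.20 with median centring and 0.071 with quantile normalization (0.09 to 0.14), that of COPI 0.22 and 0.071, that of COPII 0.14 and that of signal recognition and translocon 0.17 with median centring. The median difference between sets (0.02) was -0.10 with all 5 arrays (-0.01 to 0.05).

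Of single genes, the female Stt3a value reversed to -0.54 (adjusted p = 0.0187) in 1 fit with all groups, where its other probe set represents it, and the male Kdelr3 value reversed to 0.13 (adjusted p = 0.79) with the meninges covariate. When each male array was left out in turn, 12 of 18 calls held throughout and 6 (Arf4, Ddost, Kdelr3, Ssr4, Tmed3 and Tmed9) were lost at least once. The cause of the other changes was not tested. No paired analysis was possible because the labels give no replicate numbers that tie dehydrated to control arrays.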
